A study of Mus musculus with 6 samples.

Results

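The nicotinic acetylcholine receptor subunits studied here were the 8 neuronal subunit genes Chrna3, Chrna4, Chrna5, Chrna6, Chrna7, Chrnb2, Chrnb3 and Chrnb4, taken by symbol from the 30510 features of a retinal count table. Each symbol matched 1 feature. Total RNA was sequenced from retinas of 2 inbred mouse strains labelled wild type, DBA/2J (D2) and C57BL/6J (B6), with 3 libraries each, from mice aged 60 to 100 days. D2 is a pigmented strain that develops glaucoma with age, and B6 is the strain of the mouse reference genome. No treatment or engineered allele is given for either strain, and nothing in the labels ties a library to its own mouse. The p-values therefore cover the variation among these 6 libraries, part of which may be technical.

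Nicotinic receptors are ion channels made of subunits arranged around a cation pore that opens when acetylcholine binds. The alpha7 subunit can form the channel by itself, whereas alpha3, alpha4 and alpha6 pair with beta2 or beta4 to form the binding site. The alpha5 and beta3 subunits join such channels as accessory subunits. In the retina, acetylcholine is released by starburst amacrine cells, and nicotinic receptors carry the waves of activity that sweep the developing ganglion cell layer. Ganglion cells and their targets are known for the alpha6 and beta3 subunits.

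The D2 libraries held 29417002, 31863814 and 34478751 counts and the B6 libraries 43719666, 41256892 and 31305777. Levels are given as CPM, counts relative to the scaled size of the library, and differences as log2 fold changes, D2 minus B6, with standard error (SE). All 8 subunits passed the filter on low counts. Strains were compared by the quasi-likelihood test of edgeR over 18588 genes, and a gene passed where its Benjamini-Hochberg adjusted p was below 0.05. Reads of both strains had been aligned to a reference derived from B6, and the part of D2 sequence variants in any difference was not tested.

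Chrna5, the alpha5 accessory subunit, was 2.29-fold higher in D2. Chrnb3, the beta3 accessory subunit, was 1.23-fold higher, and Chrna4, the alpha4 subunit of the main heteromeric receptor of the brain, was 1.22-fold higher. Chrna7 was 1.2-fold lower in D2. Chrna3, Chrna6, Chrnb2 and Chrnb4 did not pass. Of the 8 subunits 3 rose and 1 fell in D2, while 14.5% of all tested genes rose, 15.3% fell and 29.7% passed in either direction. The median log2 fold change over the 8 was 0.15, and over all tested genes 0.005. In 5 of the 8 the libraries of the strains did not overlap, which was also the case for 42.3% of all tested genes.

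**Figure D1:**
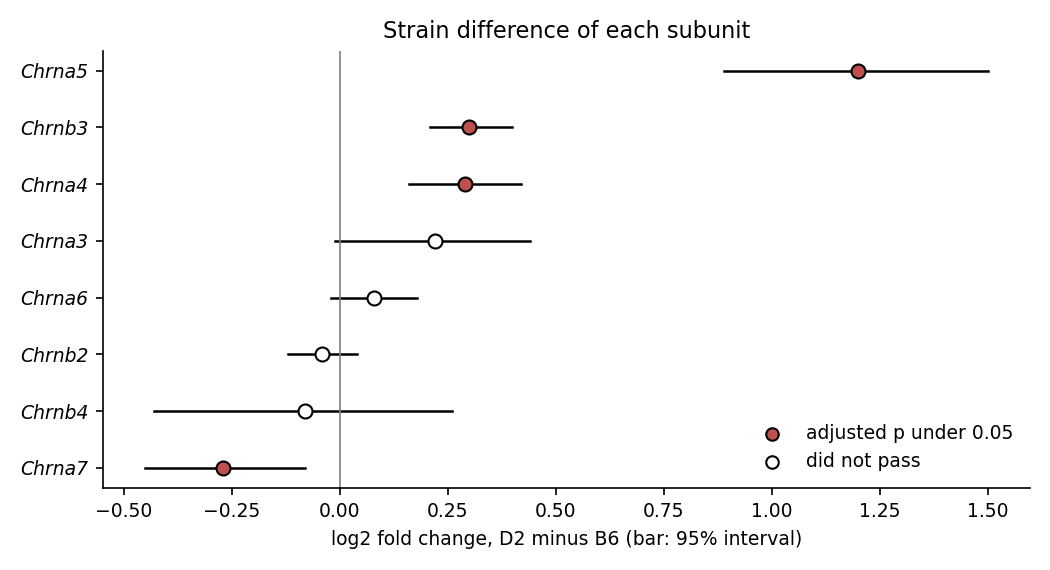
Log2 fold change, D2 minus B6, of each subunit gene with its 95% interval, from 3 libraries a strain, with filled points for genes that passed the test. Chrna5 stands at 1.2, its interval of 0.89 to 1.5 lying above those of the other 7 genes, and only Chrna7 among the genes that passed lies below 0.

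Chrna5 (mm10 chromosome 9, 54980880 to 55007779, plus strand, 4 annotated transcripts) lies in a cluster with Chrna3 and Chrnb4. The annotation gives it a pair of start sites, and the sequences before them are shown because Chrna5 was the subunit with the largest difference, with that before Chrna3, its nearest neighbour in the cluster, for comparison. They are from RefSeq (GRCm38.p6, from B6) and are written 5′ to 3′ on the strand of the gene, without bases inside annotated exons. Capitals mark the GC box GGGCGG or its reverse complement CCGCCC, the letters that Sp1-type factors are known to bind.
Chrna5, first start, chr9:54980630-54980879: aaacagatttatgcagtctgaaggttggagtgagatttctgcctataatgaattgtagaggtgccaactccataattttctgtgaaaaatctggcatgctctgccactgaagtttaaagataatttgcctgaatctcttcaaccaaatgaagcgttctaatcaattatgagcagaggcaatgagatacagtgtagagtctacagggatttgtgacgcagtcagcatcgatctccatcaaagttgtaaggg
Chrna5, second start, chr9:54981248-54981465: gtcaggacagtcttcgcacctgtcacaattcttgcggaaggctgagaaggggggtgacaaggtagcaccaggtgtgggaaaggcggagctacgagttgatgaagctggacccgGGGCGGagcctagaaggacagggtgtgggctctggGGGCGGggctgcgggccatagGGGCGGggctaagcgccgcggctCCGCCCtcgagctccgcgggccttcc
Chrna3, chr9:55026563-55026812: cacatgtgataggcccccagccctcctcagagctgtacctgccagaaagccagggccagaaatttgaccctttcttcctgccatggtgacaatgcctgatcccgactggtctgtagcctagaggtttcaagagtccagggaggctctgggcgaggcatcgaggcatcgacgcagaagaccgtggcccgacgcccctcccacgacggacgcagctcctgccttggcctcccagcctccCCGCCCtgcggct
The window before the first Chrna5 start held no GC box and had a GC content of 40.0%. The window before the second held 4 boxes at 65.2% GC, and that of Chrna3 held 1 at 63.2% GC. Over 250 bases before each start of the table, 32.7% of 32851 windows held the motif on either strand and 4.09% held 4 or more. No match overlapped another in the printed sequences. The counts are per gene and do not say which start was used in either strain, and the D2 sequence of these windows was not analysed here. Of the 8 subunits, 6 had a window in the table, and Chrna6 and Chrnb3 had none.

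The Chrna5 counts were 309, 349 and 292 in the D2 libraries and 227, 182 and 99 in the B6 libraries. After scaling these were 10.7, 10.7 and 8.40 CPM in D2, against 5.25, 4.38 and 3.18 CPM in B6. The lowest D2 library lay well above the highest B6 library, and relative to their mean the B6 libraries differed among themselves more than for the other 7 subunits. Chrna5 averaged 9.95 ± 1.34 CPM in D2 and 4.27 ± 1.04 CPM in B6 (SD, n = 3 each), a log2 fold change of 1.2 ± 0.14 (SE; adjusted p = 1.42e-05). Of all tested genes, 1.65% had a log2 fold change at least as large. Chrna5 was the only one of the 8 that passed with a difference of 1.5-fold or more, as did 3.93% of all tested genes higher in D2 and 5.04% lower in D2. Counting error alone gives an SE of 0.079 for this gene. The log2 fold change was 1.04 without B6 replicate 3 and 1.37 without B6 replicate 1, the lowest and highest values over the alternatives.

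Chrnb3 (chromosome 8, 27368711 to 27399730, plus strand) had 1110, 1233 and 1290 counts in D2 and 1345, 1307 and 908 counts in B6. Its scaled levels were 38.5, 37.9 and 37.1 CPM in D2, against 31.1, 31.5 and 29.2 CPM in B6, without overlap. The D2 libraries lay close together. Chrnb3 averaged 37.8 ± 0.686 CPM in D2 and 30.6 ± 1.22 CPM in B6 (SD, n = 3 each), a log2 fold change of 0.30 ± 0.04 (SE; adjusted p = 9.94e-05). The interval of this difference, 0.21 to 0.40, lay below that of Chrna5.

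Chrna6 encodes the alpha6 subunit, which can carry the acetylcholine site of beta3-containing receptors. It lies next to Chrnb3 (chromosome 8, 27403212 to 27413944, minus strand), 3481 bases away. Its levels were 119, 108 and 118 CPM in D2, against 116, 108 and 102 CPM in B6. The strains overlapped. Chrna6 averaged 115 ± 5.75 CPM in D2 and 109 ± 7.28 CPM in B6 (SD, n = 3 each). The log2 fold change was 0.08 ± 0.05 (SE; adjusted p = 0.247), with a 95% interval of -0.02 to 0.18. With 3173 to 5037 counts a library, the counting SE was 0.019, so depth did not limit this comparison.

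Chrna4 (chromosome 2, 181018380 to 181043546, minus strand) had levels of 19.6, 17.5 and 17.8 CPM in D2, against 14.9, 15.4 and 14.6 CPM in B6. All D2 libraries lay above all B6 libraries. Chrna4 averaged 18.3 ± 1.15 CPM in D2 and 15.0 ± 0.385 CPM in B6 (SD, n = 3 each), a log2 fold change of 0.29 ± 0.06 (SE; adjusted p = 0.00189). Its usual partner Chrnb2 (chromosome 3, 89746195 to 89764632, minus strand), which encodes beta2, had 91.5, 88.9 and 94.2 CPM in D2, against 95.5, 91.0 and 96.5 CPM in B6. Here the strains overlapped. The log2 fold change of Chrnb2 was -0.04 ± 0.04 (SE; adjusted p = 0.436), with a 95% interval of -0.12 to 0.04.

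Chrnb2 shares 1365 of its 8380 exonic bases with Adar, an RNA-editing enzyme gene on the opposite strand. Of its 31-base words, 15.05% occurred in another gene, all of them in Adar. Whether counting used the strand is not given in the sources here, and reads from these shared bases cannot be told apart by gene. Adar averaged 95.8 ± 1.69 CPM in D2 and 105 ± 4.12 CPM in B6 (SD, n = 3 each; log2 fold change -0.13 ± 0.04, adjusted p = 0.0138). The Adar call was lost without D2 replicate 2 (adjusted p = 0.0557), B6 replicate 1 (0.0506) or B6 replicate 3 (0.0524), and the part of Adar reads in the Chrnb2 level was not tested. The other 7 subunits had no exonic base in another annotated gene, though Gm44741 overlaps an intron of Chrna7 (log2 fold change -0.66 ± 0.40 SE, adjusted p = 0.246) and the antisense gene Gm47877 an intron of Chrnb4, and at most 2.47% of their 31-base words occurred in one.

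Chrna3 and Chrnb4, which encode the pair of subunits best known from autonomic ganglia, were the least abundant of the 8. Chrna3 (chromosome 9, 55010111 to 55026562, minus strand) had 138, 172 and 163 counts in D2 and 190, 178 and 124 counts in B6. After scaling these were 4.78, 5.29 and 4.69 CPM in D2, against 4.39, 4.29 and 3.99 CPM in B6. The strains did not overlap, but Chrna3 did not pass (log2 fold change 0.22 ± 0.11 SE, adjusted p = 0.144), and its 95% interval was -0.01 to 0.44. Chrnb4 (chromosome 9, 55028154 to 55048779, minus strand) had 56, 77 and 71 counts in D2 and 88, 108 and 65 counts in B6. Its strains overlapped, at 2.12 ± 0.223 CPM in D2 and 2.24 ± 0.312 CPM in B6 (SD, n = 3 each; log2 fold change -0.08 ± 0.16 SE, adjusted p = 0.743). Its counting SE of 0.135 was close to the fitted one, and its 95% interval of -0.43 to 0.26 is the widest of the 4 subunits that did not pass.

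Chrna7, the subunit of the homomeric, highly calcium-permeable receptor (chromosome 7, 63098692 to 63212569, minus strand), had 197, 258 and 281 counts in D2 and 384, 397 and 283 counts in B6. Its scaled levels were 6.83, 7.93 and 8.09 CPM in D2, against 8.88, 9.56 and 9.10 CPM in B6. All D2 libraries lay below all B6 libraries, with D2 replicate 1 the lowest. Chrna7 averaged 7.62 ± 0.685 CPM in D2 and 9.18 ± 0.347 CPM in B6 (SD, n = 3 each), a log2 fold change of -0.27 ± 0.09 (SE; adjusted p = 0.0289). The call was lost without D2 replicate 1 (-0.20, adjusted p = 0.131), without B6 replicate 2 (-0.24, adjusted p = 0.0941) and by DESeq2 (-0.27, adjusted p = 0.0691), with a range of 0.0227 to 0.131 over 13 alternatives.

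**Figure D2:**
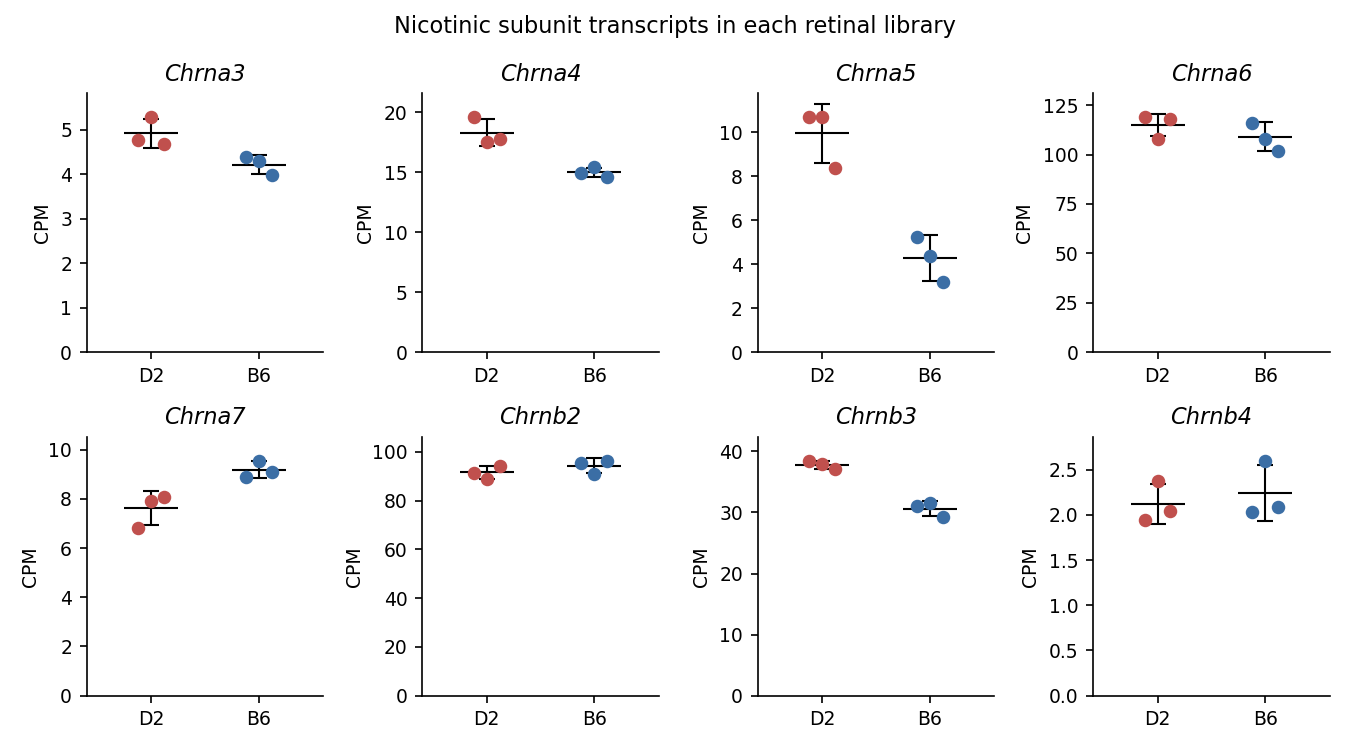
CPM of each subunit gene (vertical axis, from 0, scaled for each gene) in the 3 D2 and the 3 B6 libraries, one point a library, with the mean and SD in black. The D2 points of Chrna5, from 8.40 to 10.7 CPM, stand apart from the B6 points, from 3.18 to 5.25 CPM, while those of Chrna6, Chrnb2 and Chrnb4 overlap.

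Levels were compared between genes after division by the length of their merged exons, as CPM per kb. Chrna6 was the most abundant subunit in each strain, at 39.6 ± 1.98 CPM per kb in D2 and 37.4 ± 2.50 CPM per kb in B6 (SD, n = 3 each), 3.62 times the level of Chrnb2 in D2 and 3.32 times in B6. Chrnb2, Chrnb3 and Chrna4 came next in each strain. Chrna5 followed in D2 at 3.18 ± 0.429 CPM per kb, ahead of Chrna7 at 1.69 ± 0.152. In B6 these places were exchanged, with Chrna5 at 1.37 ± 0.332 and Chrna7 at 2.04 ± 0.0771 CPM per kb. Chrna3 and Chrnb4 came last in each strain. With merged exons as the length, every pair of neighbours in either order was separated in its 3 libraries. With the longest transcript as the length, Chrna5 passed Chrna4 in D2, at 4.07 and 4.01 CPM per kb. In B6, Chrna4 and Chrna7 were then nearly level, at 3.28 and 3.26 CPM per kb. The rest of both orders of means stayed as given. The lead of Chrna6 over Chrnb2 was smaller with that length, at 39.6 against 14.3 CPM per kb in D2 and 37.4 against 14.7 in B6. Ratios between genes, and shares, thus depend on the length chosen, and those given here use merged exons.

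**Figure D3:**
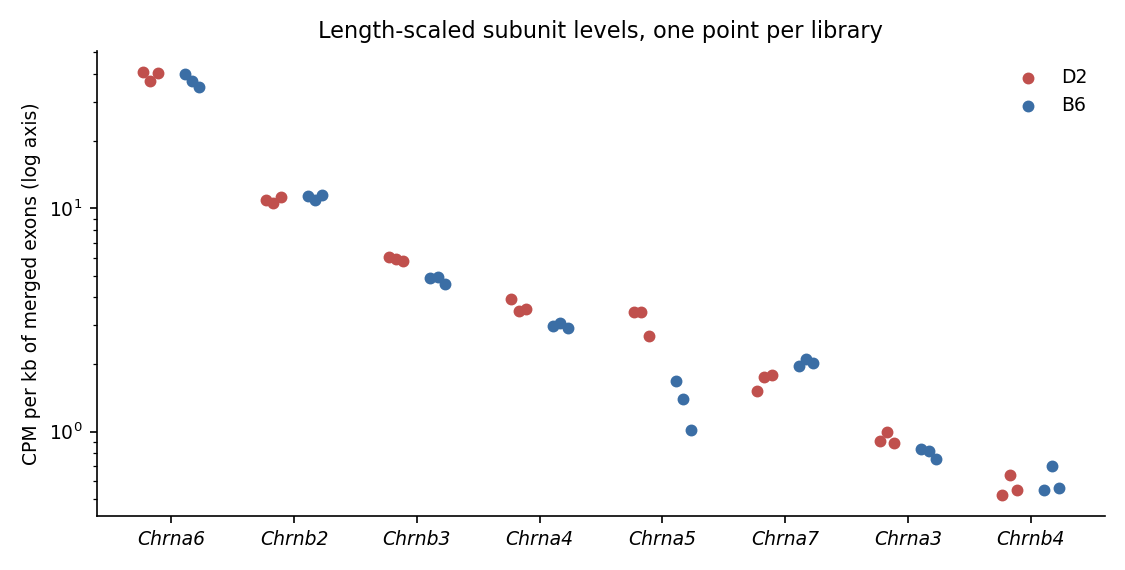
Level of each subunit in CPM per kb of merged exons (log axis), one point a library, D2 left of B6, genes ordered by their D2 mean. Chrna6 lies highest in each strain, with means of 39.6 in D2 and 37.4 in B6, and Chrna5 lies above Chrna7 in D2 and below it in B6.

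Expressed as a share of the summed level per kb of the 8 subunits, a measure that does not depend on the scaling between libraries, Chrna5 held 5.03%, 5.35% and 4.01% in D2, against 2.61%, 2.30% and 1.74% in B6. Chrna6 held 59.5 ± 1.22% in D2 and 61.0 ± 1.13% in B6, and Chrnb2 held 16.4 ± 0.379% in D2 and 18.4 ± 1.12% in B6 (SD, n = 3 each). Chrnb3 held 8.94 ± 0.300% in D2 and 7.84 ± 0.260% in B6. The shares of Chrna4, Chrna5, Chrna7, Chrnb2 and Chrnb3 did not overlap between strains (exact two-sided permutation test, p = 0.1 each, the smallest that 3 against 3 libraries allow). Shares are parts of a whole, so a rise of some lowers the others, and these 5 are not independent. The level of Chrnb2 itself overlapped between strains and did not pass (log2 fold change -0.04, adjusted p = 0.436 in the edgeR fit). The summed level was 66.5 ± 2.06 CPM per kb in D2 and 61.3 ± 2.96 CPM per kb in B6 (exact permutation p = 0.2).

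Ratios between subunits within a library were read for 9 pairs, chosen after the levels were seen. The ratio of Chrna5 to Chrna3, both per kb, was 3.77, 3.42 and 3.02 in D2 and 2.01, 1.72 and 1.34 in B6. The ratio of Chrna4 to Chrnb2 was 0.334 ± 0.0215 in D2 and 0.265 ± 0.0151 in B6, and that of Chrna6 to Chrnb3 was 6.67 ± 0.355 in D2 and 7.79 ± 0.371 in B6 (SD, n = 3 each). In each of the 9 pairs the strains did not overlap. Each had an exact permutation p of 0.1, the smallest that 3 against 3 libraries allow, also after adjustment over the 9 pairs. Because the pairs were picked with their levels known, this count is a description and not a test, and the other pairs were not read.

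Neighbouring genes were listed to show whether the surroundings of the subunits differed as well. Of 43 counted genes within 250 kb of a subunit, 35 were tested. In D2, 2 of them rose and 6 fell, and the median log2 fold change was -0.03. The neighbours that passed made 22.9%, less than the 29.7% of all tested genes. Around the chromosome 9 cluster, Psma4, a proteasome subunit gene 22849 bases from Chrna5, did not pass (log2 fold change 0.09 ± 0.04 SE, adjusted p = 0.0747), nor did Hykk (-0.01 ± 0.13 SE, adjusted p = 0.957). Nrg4, a growth factor gene 171442 bases from Chrnb4, was lower (-0.25 ± 0.09 SE, adjusted p = 0.0483), at 6.77 ± 0.605 CPM in D2 and 8.04 ± 0.387 CPM in B6 (SD, n = 3 each). The Nrg4 call was lost by DESeq2 (adjusted p = 0.116) and without D2 replicate 2 (0.0771), D2 replicate 3 (0.201), B6 replicate 1 (0.0733), B6 replicate 2 (0.152) or B6 replicate 3 (0.0558). Near Chrnb3, Eif4ebp1, a repressor of translation, rose 2.35-fold at a low level, with 1.94 ± 0.194 CPM in D2 and 0.829 ± 0.180 CPM in B6 (SD, n = 3 each; adjusted p = 0.000279). Near Chrna4, Col20a1, which ends 16 bases from Chrna4 on the opposite strand, did not pass (adjusted p = 0.123), though it did without B6 replicate 3 (adjusted p = 0.0155). Adgra2, 245274 bases from Chrnb3, fell (-0.26 ± 0.05 log2), and Atp8b2, 174848 bases from Chrnb2, rose (0.24 ± 0.05 log2). Without D2 replicate 2, 4 neighbours passed in place of 8.

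**Figure D4:**
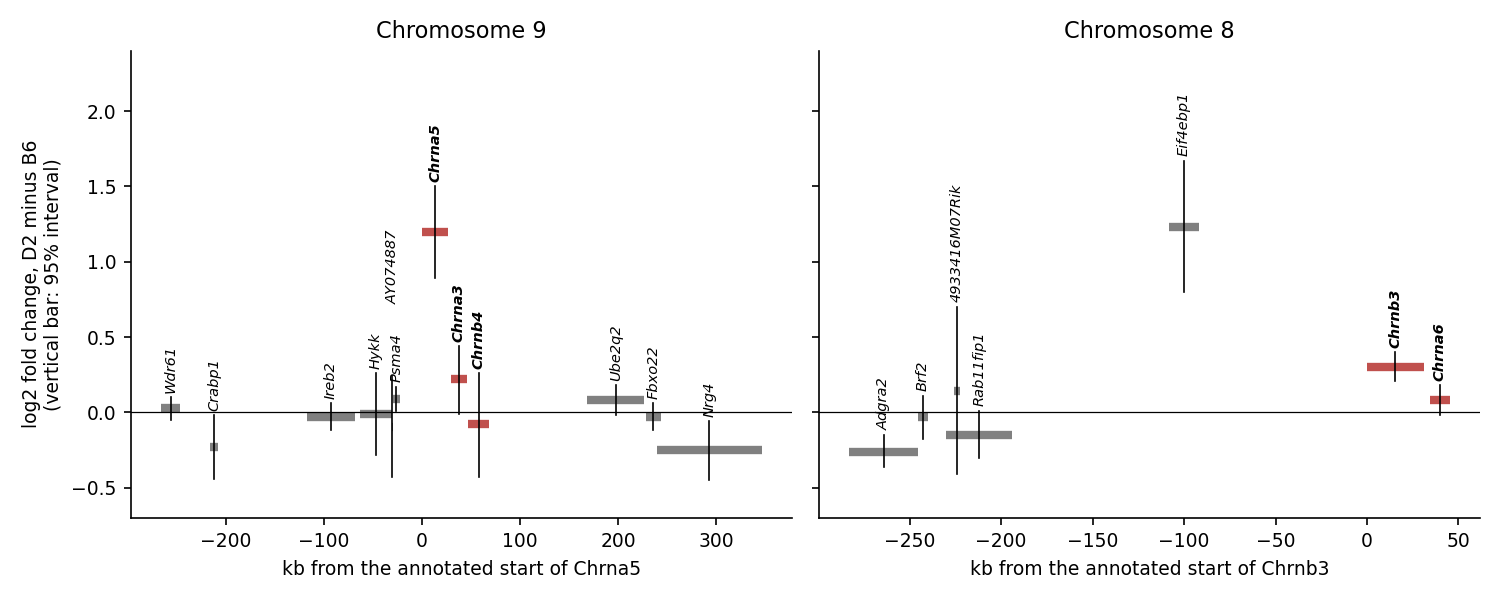
Log2 fold change, D2 minus B6, of the tested genes around Chrna5 (left) and Chrnb3 (right), against distance in kb from their annotated start. Thick bars give gene bodies, red for the subunits, and thin bars 95% intervals. On chromosome 9 Chrna5, at 1.2, is the only gene above 0.5, and on chromosome 8 Eif4ebp1 is the highest.

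The other 8 nicotinic subunits are known mainly from muscle and the inner ear. Chrna9 and Chrnd had no count in any library, which allows up to 0.104 CPM in the shallowest one (3 counts, for counting error only), and Chrna10, with 2 to 8 counts a library, was not tested. Of the 5 tested, 1 rose (20.0%, against 29.7% of all tested genes passing in either direction). Chrnb1, the beta subunit of the muscle receptor, had 20.9, 24.3 and 21.6 CPM in D2, against 13.2, 11.4 and 13.5 CPM in B6, without overlap (log2 fold change 0.81 ± 0.07 SE, adjusted p = 7.25e-07). Its muscle partners were close to the detection limit, Chrna1 at 0.561 ± 0.118 CPM in D2 and 0.439 ± 0.121 CPM in B6 and Chrne at 0.459 ± 0.0798 CPM in D2 and 0.276 ± 0.105 CPM in B6 (SD, n = 3 each), and neither passed. Muscle markers summed to 20.3 to 22.2 CPM in D2 and 22.1 to 26.7 CPM in B6, of which Pvalb, also known from retinal neurons, gave 11.5 to 13.3 CPM in D2 and 13.4 to 19.4 CPM in B6. Without Pvalb, an alternative chosen after seeing the data, the other 9 markers summed to 8.80 to 9.11 CPM in D2 and 6.96 to 8.69 CPM in B6. Among them Acta1, skeletal muscle actin, was 1.52-fold higher (adjusted p = 0.0382), a call lost by DESeq2 (adjusted p = 0.0758) and without D2 replicate 1 (0.104), D2 replicate 3 (0.113), B6 replicate 1 (0.0896) or B6 replicate 2 (0.192). Atp2a1, a muscle calcium pump gene, did not pass (0.32 log2, adjusted p = 0.152). The part of muscle RNA in the Chrnb1 level was not tested. Chrna2, a neuronal subunit, did not pass (4.90 ± 0.613 CPM in D2 and 5.48 ± 0.627 CPM in B6; adjusted p = 0.345).

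Of 8 tested genes of acetylcholine synthesis, transport and breakdown, 1 rose and 2 fell. The median log2 fold change in D2 was -0.04, and 37.5% passed, against 29.7% of all tested genes. Chat, the enzyme that makes acetylcholine, had a log2 fold change of -0.01 ± 0.09 (SE; adjusted p = 0.95) and Slc18a3, its vesicular transporter, 0.07 ± 0.11 (SE; adjusted p = 0.667). Ache, which breaks acetylcholine down, rose, at 44.8 ± 0.649 CPM in D2 and 39.1 ± 0.870 CPM in B6 (SD, n = 3 each; adjusted p = 0.00187). Slc5a7, the high-affinity choline transporter, fell, at 17.6 ± 0.745 CPM in D2 and 20.1 ± 0.646 CPM in B6 (adjusted p = 0.0124), and lost its call without D2 replicate 3 (adjusted p = 0.0707) or B6 replicate 1 (0.0515). Pcyt1a, an enzyme of phosphatidylcholine synthesis, fell as well (-0.17 ± 0.04 log2, adjusted p = 0.00954). The most abundant of the list, Slc44a1, a choline transporter-like gene, did not pass (-0.01 ± 0.04 log2, adjusted p = 0.892).

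Among 14 tested genes of receptor assembly and accessory proteins, 2 rose and 2 fell, with a median log2 fold change of -0.04. Those that passed made 28.6%, near the 29.7% of all tested genes. Tmem35a, which encodes NACHO, a chaperone of nicotinic receptor assembly, had 60.9, 56.0 and 62.4 CPM in D2, against 47.7, 45.6 and 44.0 CPM in B6, without overlap (log2 fold change 0.38 ± 0.05 SE, adjusted p = 1.88e-05). Its difference passed under all 13 alternatives. The chaperone gene Ric3, at 184 ± 3.39 CPM in D2 and 181 ± 5.38 CPM in B6, and the prototoxin gene Lynx1, at 172 ± 5.89 CPM in D2 and 182 ± 4.15 CPM in B6, were the most abundant of the list (SD, n = 3 each). Neither passed (adjusted p = 0.657 for Ric3 and 0.0805 for Lynx1).

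The other 3 calls of that list were close to the threshold. Ly6h, a prototoxin gene known to act on alpha7, was higher (0.23 ± 0.07 log2, adjusted p = 0.0178), while Rapsn, the scaffold of muscle receptors, at 13 to 19 counts a library in D2 and 29 to 41 in B6 (-0.78 ± 0.26 log2, adjusted p = 0.0356), and Nsg1, an endosomal protein gene (-0.13 ± 0.05 log2, adjusted p = 0.0434), were lower. By DESeq2 all 3 lost the call (adjusted p = 0.0606, 0.13 and 0.0528), which left Tmem35a alone. Without D2 replicate 1 (adjusted p = 0.0554, 0.109 and 0.0771) or B6 replicate 2 (0.053, 0.133 and 0.091) Ly6h, Rapsn and Nsg1 also all lost it. Ly6h also lost it without D2 replicate 3 (0.0878) or B6 replicate 3 (0.0518). Rapsn lost it without D2 replicate 2 (0.0727), D2 replicate 3 (0.0724) or B6 replicate 3 (0.105) and by limma-voom (0.0508), and Nsg1 without D2 replicate 2 (0.156) or B6 replicate 1 (0.205).

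Of the 5 muscarinic receptor genes, which encode the G protein-coupled acetylcholine receptors, 1 rose, with a median log2 fold change of -0.07. Thus 20.0% passed, against 29.7% of all tested genes. Chrm2 averaged 20.4 ± 0.574 CPM in D2 and 17.7 ± 1.15 CPM in B6 (SD, n = 3 each; log2 fold change 0.21 ± 0.06, adjusted p = 0.0149), and lost its call without D2 replicate 3 (adjusted p = 0.0638) or B6 replicate 2 (0.0897). Chrm3, the next most abundant, had 7.69 ± 0.351 CPM in D2 and 8.62 ± 0.524 CPM in B6 and did not pass (adjusted p = 0.145).

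Markers of the cells known to carry or feed these receptors were read beside the subunits. Of 18 ganglion cell markers, 1 rose, 9 fell and 8 did not pass in D2, so 55.6% passed, against 29.7% of all tested genes. Their median log2 fold change was -0.21, and their summed level was 842 to 892 CPM in D2, against 990 to 1160 CPM in B6. The largest part of that sum was the neurofilament gene Nefl, at 303 ± 15.7 CPM in D2 and 415 ± 44.8 CPM in B6 (SD, n = 3 each). The neurofilament genes Nefm (-0.52 ± 0.05 log2) and Nefh (-0.49 ± 0.07 log2) fell as well. None of the 18 was at 0. Slc17a6, the vesicular glutamate transporter of ganglion cells, was at 77.0 ± 1.96 CPM in D2 and 91.3 ± 6.30 CPM in B6 (SD, n = 3 each; adjusted p = 0.000809), whereas Rbpms did not pass (-0.02 ± 0.07 log2, adjusted p = 0.849). The marker that rose was Sncg (0.19 ± 0.06 log2, adjusted p = 0.0285), which was not read under the alternatives. Among the subunits that passed, Chrna4, Chrna5 and Chrnb3 were higher in D2 and Chrna7 was lower. Of the 18 ganglion cell markers 9 were lower. The part of ganglion cells in the subunit levels was not tested. In RNA of whole retina, fewer cells of a type and less RNA per cell cannot be told apart. Of 9 starburst amacrine markers, 0 rose and 3 fell, with a median of -0.11 and a summed level of 235 to 242 CPM in D2 and 252 to 270 CPM in B6. The share that passed, 33.3%, was near the 29.7% of all tested genes, and Chat and Slc18a3 were among those that did not pass.

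**Figure D5:**
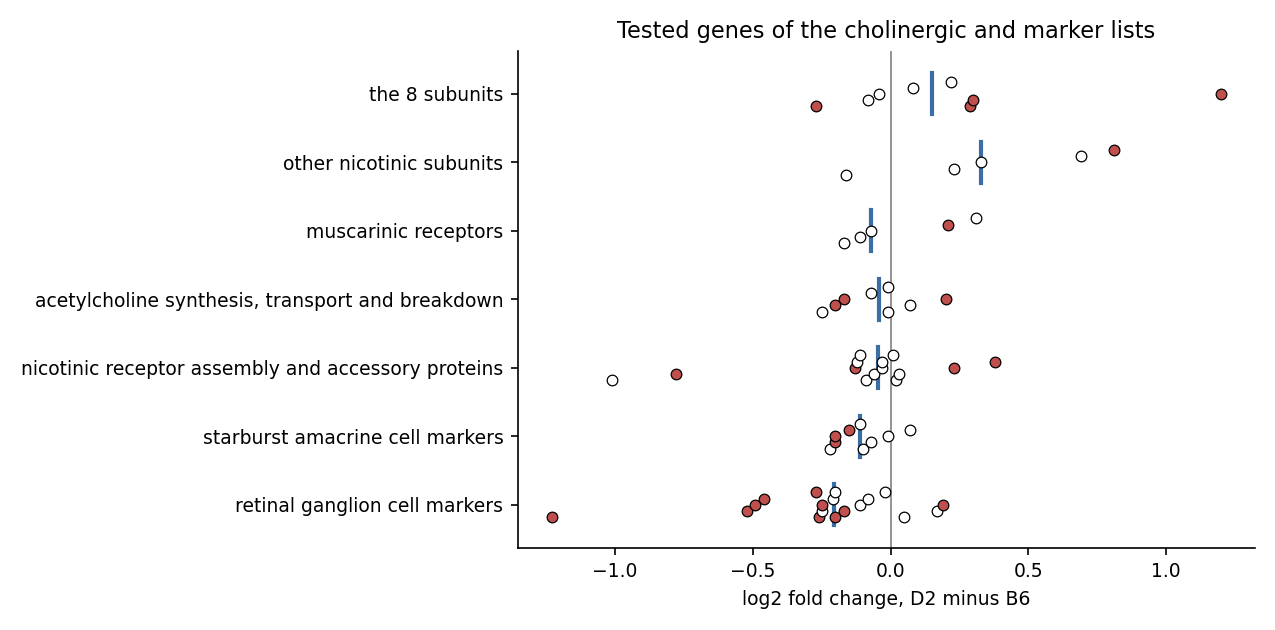
Log2 fold change, D2 minus B6, of the tested genes of each list, filled where a gene passed the test, with the median of the list as a blue bar. The 8 subunits have a median of 0.15, and the ganglion cell markers have one of -0.21.

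The genes whose pattern over the 6 libraries was most like that of a subunit were taken from 12708 genes as those with the smallest root mean square difference of log2 CPM after centring. For Chrna5 they were Erdr1, Lyplal1 and Apela, with differences of 0.176 to 0.196. For Chrnb3 they were Pxylp1, Zfp365 and Bhlhb9 (0.024 to 0.026), for Chrna4 Zfp874b, Rnd2 and Ppat (0.022 to 0.025) and for Chrna7 Il18bp, Efnb2 and Lrfn2 (0.017 to 0.029). None of these 12 genes is a nicotinic subunit.

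In the authors' deposited table, which gives strain means on a scaled axis, all 8 subunits were present and 4 had a false discovery rate under 0.05. By the authors' deposited table Chrna5 stood at 7.79 in D2 and 6.87 in B6 with a false discovery rate of 1.81e-22, Chrnb3 at 9.18 in D2 and 8.96 in B6 (5.01e-13), Chrna4 at 8.43 in D2 and 8.20 in B6 (2e-05) and Chrna7 at 7.51 in D2 and 7.68 in B6 (0.00379). Of the 8, only Chrna5 carried both of the marks for differential expression in the authors' deposited table.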

How the data were processed

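The authors' deposited count table holds whole, unnormalized numbers by gene symbol for 6 libraries of mouse retina (RNA integrity number 9.1 to 9.5), and, in a second deposited table of 18100 genes, strain means and standard errors as scores on a scaled axis with false discovery rates, which are adjusted p-values made by the authors. Per the submitters' processing notes FastQC, STAR, SAMtools, edgeR and the build mm10 were used; their versions, the counter, annotation and strand setting are not given here.

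Counts were filtered with filterByExpr (18588 of 30510 features left; 6132 had no count), scaled with TMM factors and fitted in edgeR 4.0.16 (R 4.3.3) with a quasi-likelihood model of strain, adjusted by Benjamini-Hochberg with a threshold of 0.05. CPM in the text use TMM-scaled library sizes. The common biological coefficient of variation was 4.4%. Lengths, neighbours and 31-base words came from GENCODE M21 (mm10), promoter windows from RefSeq. The fit was tested on simulated data. Shares and ratios were compared with exact permutation tests. Python 3.11.15, pandas 2.3.3 and scipy 1.17.1 were used for tables.

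The alternatives tried were edgeR with upper quartile or DESeq2 scaling, DESeq2 1.42.0, limma-voom (limma 3.58.1), 2 other filters, the replicate number as a block, leaving out each library, and transcript length. Subunits and lists were chosen with earlier results of these data known. Named were all subunits, up to 5 passing genes and the 2 most abundant of each list, passing or overlapping neighbours, and the 3 most similar genes per passing subunit. A neighbour that this rule names is not reported here. Genes named outside this rule (Hykk, Psma4, Nrg4, Col20a1, Chat, Slc18a3, Chrna1, Chrna9, Chrna10, Chrnd, Chrne, Rbpms, Sncg and Pvalb among them) were chosen after their values were seen.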

Additional observations from a re-analysis of the deposited data

How the results depend on the processing

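The calls of Chrna4, Chrna5 and Chrnb3 passed under all 13 alternatives, with log2 fold changes of 0.24 to 0.32, 1.04 to 1.37 and 0.27 to 0.32, and Chrna3, Chrna6, Chrnb2 and Chrnb4 passed under none. The number of subunits that passed as lower in D2 was 0 by DESeq2 and 0 to 1 when a library was left out, since Chrna7 lost its call. For the assembly and accessory list 1 gene passed by DESeq2 and 1 to 4 when a library was left out, for the muscarinic list 0 to 1, and for the neighbours 4 to 7. The direction of genes close to 0 turned when a library was left out: Chat ranged from -0.11 to 0.07, Hykk from -0.09 to 0.10 (0.01 by limma-voom), Rbpms from -0.08 to 0.03, Chrnb4 ranged from -0.17 to 0.04, Cnp from -0.15 to 0.02 (0.01 in another), Prkca from -0.04 to 0.01 (0.00 in another) and Slc44a1 from -0.04 to 0.03. Replicate numbers were shared by the strains, but same-numbered libraries did not deviate together (r of 0.135, 0.0657 and -0.0296), and the replicate block left 5093 genes called in place of 5524 and 4 subunits, with Chrna5 at 1.23, Chrna4 at 0.29, Chrnb3 at 0.31 and Chrna7 at -0.27. Of the genes named in the text and read under the alternatives, the block ended the calls of Nsg1 (adjusted p = 0.0586) and Nrg4 (0.0631). Depth limited Chrnb4, with 56 to 108 counts a library.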

Other observations

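Other cell types of the eye were read from marker lists. Of 12 amacrine cell markers 4 rose and 1 fell in D2, among them Gad2 and Tfap2c, a GABA-synthesising enzyme and a transcription factor, which were 1.38-fold and 1.61-fold higher. Of 10 bipolar cell markers 4 rose and 1 fell, with a median log2 fold change of 0.03. Grik1, 1 of the 4, lost its call without D2 replicate 1, 2 or 3 or B6 replicate 2 or 3 (adjusted p = 0.0604 to 0.123). Of 8 rod markers 1 rose and 1 fell, and their sum was 52500 to 55600 CPM in D2 and 55900 to 57500 CPM in B6. Of 5 tested muscle markers 1 rose and 1 fell. Rpe65, the isomerase of the pigment epithelium, ranged from 5.96 to 23.2 CPM in D2 and from 7.98 to 28.7 CPM in B6. Of 5 tested oligodendrocyte markers 3 rose, with a sum of 58.6 to 83.3 CPM in D2 and 52.8 to 57.9 CPM in B6.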
